A study of Mus musculus with 4 samples.

Results

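The 5′ untranslated region (5′ UTR) of each gene was set against the promoter of the same gene in mouse C3H10T1/2 cells. Members were the 5′ UTRs with a CpG methylation level in all 4 libraries, and each was joined by its Ensembl gene identifier to the promoter entry of that gene. There were 11491 such 5′ UTRs, of 11994 listed in at least 1 library and of 151644 regions of 8 classes that had a level in all 4. A promoter level in all 4 libraries existed for 10612 of them, and these pairs carry every comparison of a 5′ UTR with its promoter. The other 879 had no such partner, and 114 of these had a promoter level in some of the libraries. Their median 5′ UTR level in the NC uninduced library was 0.133, against 0.0286 over all members, and the 2 kb before their starts held a median of 26 CpG sites, against 41 for the pairs.

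C3H10T1/2 is a line of mouse embryo origin that is used as mesenchymal stem cells (MSCs), and no other cell source was read here. Cells received a control siRNA (NC) or an siRNA against DNMT1 (siDNMT1) for 48 h, and were then left uninduced or kept for 3 days in an osteoblast (OB) medium with ascorbic acid, β-glycerophosphate and dexamethasone. Genomic DNA of each of the 4 conditions gave 1 bisulfite library, so no difference between conditions had a replicate check, no p-value was computed, and a change describes a pair of libraries. The labels call the assay reduced representation bisulfite sequencing, although the protocol they give fragments the DNA by sonication. The level of a region is the fraction of its CpG cytosines read as methylated, from 0 to 1, and no read number stands beside it, which leaves the depth of every region unknown. The libraries listed between 155398 and 159705 regions each, with the fewest in the siDNMT1 OB library.

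DNMT1 is the enzyme that copies CpG methylation to the new strand after DNA replication. The promoter lies upstream of the transcription start and the 5′ UTR begins at it, so in a gene with a single start they are neighbouring stretches of DNA. A CpG island, a stretch rich in CpG sites and usually free of methylation, often spans the start, so it may cover the 5′ UTR and only the near end of the promoter. The promoter entry stands for the 2 kb upstream of a start, and which sites of that window were read is not given.

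Among the 20 genes with the widest gaps, 5 had exactly 1 annotated start, and the bases just before that start are shown for these because their 5′ UTR and promoter meet there. The first 3 had an almost unmethylated 5′ UTR under a methylated promoter, and the last 2 had the reverse. Each stretch is the 30 bases before the start in GRCm38, read 5′ to 3′ on the strand of the gene, and capitals mark CpG sites. They lie at chr1:71103147-71103176 (minus strand), chr7:3665841-3665870 (minus), chr8:106011883-106011912 (minus), chr11:116335400-116335429 (minus) and chr2:154551746-154551775 (plus), in the order given.
Bard1: CGctcaggaagtttgagCGCGctatacccc
Leng1: ctggaaccaaattcccCGccctctgccacc
Ddx28: ccaacttctgtctcagtcccctggcctacc
Foxj1: gCGgggCGtCGccatggcagcagaagaagc
Actl10: ctaagttccttcccacctctacatccaggt

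In the 250 bases before the start, Bard1 held 9 CpG sites, Leng1 5, Ddx28 4, Foxj1 23 and Actl10 3. The density next to the start therefore did not separate the low from the high 5′ UTRs among these 5 genes. For Actl10, 34 CpG sites lay between 1 and 2 kb upstream and 9 in the nearer 1 kb, so most of the sites in its promoter window were far from the start. For Foxj1 the order was the other way, with 51 in the nearer 1 kb and 17 beyond.

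5′ UTRs were less methylated than promoters in every library. The median 5′ UTR level was 0.0265 in NC uninduced, 0.0279 in siDNMT1 uninduced, 0.0243 in NC OB and 0.0247 in siDNMT1 OB. The median promoter level of the same genes was 0.0749, 0.0733, 0.0659 and 0.0620 in that order, above the 5′ UTR median each time. Within a gene, the 5′ UTR was the lower of the pair in 64.8%, 65.1%, 64.8% and 64.0% of the 10612 pairs. The median gap, taken as 5′ UTR minus promoter, was small and lay between -0.00837 and -0.00738 over the libraries. In a typical gene the 5′ UTR was thus only slightly lower than its promoter. Across genes, Pearson's r between the 5′ UTR and promoter levels lay between 0.642 and 0.654, and Spearman's rank coefficient between 0.594 and 0.612. Genes are not independent replicates and the levels come from the same library, so these are descriptions.

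**Figure D1:**
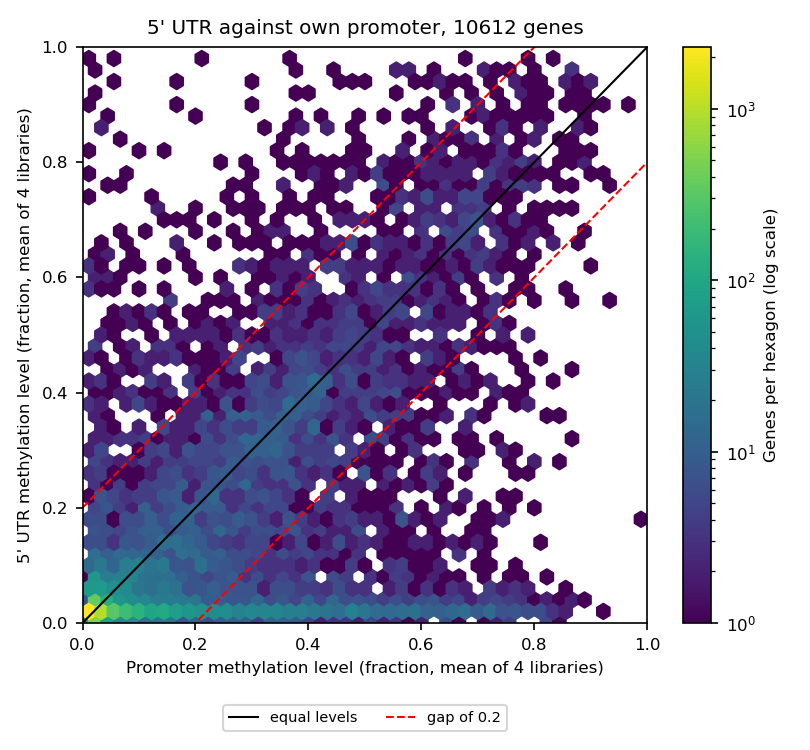
Mean methylation level of the 5′ UTR (vertical axis) against that of the promoter of the same gene (horizontal axis), both as fractions over the 4 libraries, for 10612 genes. Colour gives the number of genes per hexagon on a log scale, the black line marks equal levels and the dashed lines a gap of 0.2. Most genes sit in the lower left corner, and a band runs along the bottom where the 5′ UTR stays near 0 at any promoter level.

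By means over the 4 libraries, 5527 pairs (52.1%) had both levels below 0.1. Both were at least 0.5 in 531 pairs. A 5′ UTR below 0.1 stood beside a promoter of at least 0.5 in 335 pairs, and the reverse arrangement occurred in 49. A mean gap of at least 0.2 was counted as apart, and by this count the 5′ UTR was lower in 1345 pairs (12.7%) and higher in 448 (4.22%). In the 1345 pairs the median 5′ UTR level was 0.0305 and the median promoter level 0.458. In the 448 pairs these were 0.594 and 0.2. Of the 1190 promoters at 0.5 or above, 335 had a 5′ UTR below 0.1 and 531 one at 0.5 or above, and the median level of these 5′ UTRs was 0.438. Of the same promoters, 46.7% had a 5′ UTR that was lower by at least 0.2, whereas of the 864 5′ UTRs at 0.5 or above, 33.7% had a promoter that was lower by at least 0.2.

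CpG islands in the deposited lists overlapped 84.8% of the 1345 lower 5′ UTRs, 63.8% of the 448 higher ones and 93.8% of the 5′ UTRs in pairs with both levels below 0.1. Where the 5′ UTR overlapped a listed island with a level in all 4 libraries, that island could be compared with each side of the pair. Among the lower 5′ UTRs this was possible in 1136, and in 962 of them the 5′ UTR was within 0.1 of the island, while the promoter was within 0.1 in 62. The island was matched through the 5′ UTR and the pairs were chosen for their gap, so a promoter could not be near an island that its 5′ UTR matched, and these counts describe the class only. Among the higher 5′ UTRs it was possible in 284, with 63 5′ UTRs and 128 promoters within 0.1 of the island. Over all pairs with such an island, 8249 of 9185 5′ UTRs and 6933 promoters were within 0.1. The exon entries of the same genes had a median of 0.380 in the lower class and 0.616 in the higher class.

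Levels were also read by the position of the 5′ UTR. Where the median CpG site of the annotated 5′ UTR lay within 250 bases of the outermost start (6875 pairs), the median 5′ UTR level was 0.0224 and 7.27% were at 0.5 or above. Where it lay more than 20000 bases away (447 pairs), the median was 0.114 and 11.6% were at 0.5 or above. The shares at 0.5 or above did not follow distance in order, with 6.98% of the 2164 pairs at over 250 and up to 1000 bases and 16.5% of the 454 at over 5000 and up to 20000 bases. The share with the 5′ UTR higher by at least 0.2 was 3.56% in the nearest class and 9.62% in the farthest. Genes with remote 5′ UTR sites can have several starts, and the promoter entry of such a gene need not adjoin the 5′ UTR that was averaged. The deposited entries do not say which start was used. In the 1771 pairs whose annotated starts all lie within 100 bases, the 5′ UTR was lower in 59.5%, apart and lower in 10.6%, and apart and higher in 7.34%. In these genes the levels of the 5′ UTR and the promoter describe adjoining DNA.

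The same single-start genes were used to count CpG sites by distance from the start. Pairs with both levels below 0.1 (881) had a mean of 20.3 CpG sites in the 250 bases before the start. The corresponding means were 14.9 in the 187 pairs with the 5′ UTR lower, 11.6 in the 130 pairs with it higher and 11.6 in the 142 pairs with both levels at least 0.5. In the first 250 bases after the start the means were 25.2, 21.5, 15.9 and 14.4 in that order. More than 1000 bases upstream, the order changed, and in the farthest 250 bases the pairs low on both sides had 2.68 sites and the pairs with a lower 5′ UTR had 4.02. Genes with a low 5′ UTR and a more methylated promoter thus held fewer sites near the start and more sites far upstream than genes low on both sides.

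**Figure D2:**
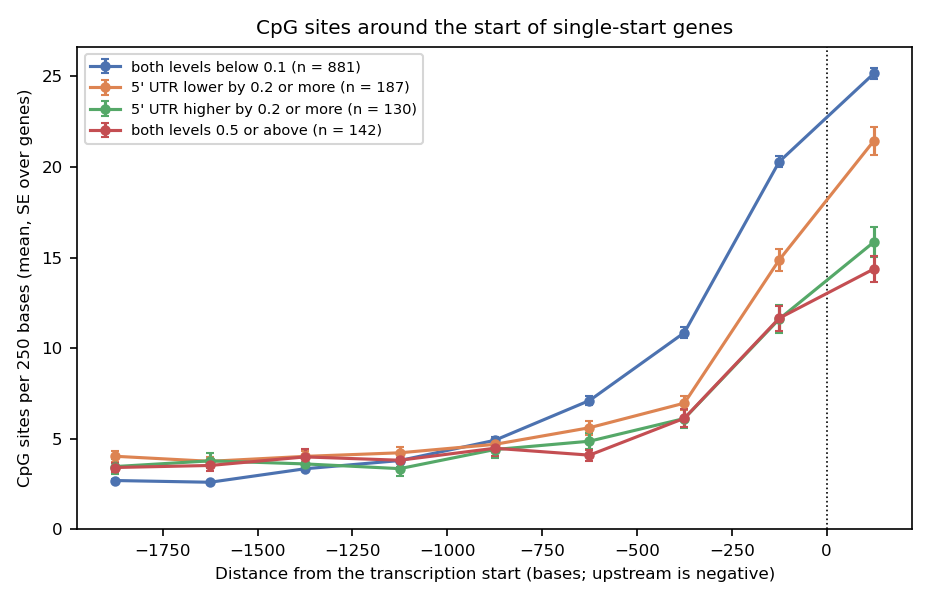
Mean number of CpG sites per 250 bases (vertical axis, error bars are SE over genes) against distance from the transcription start (horizontal axis, upstream negative) in genes whose starts lie within 100 bases. Lines are the 4 classes of pairs, and the dotted line marks the start. Pairs low on both sides rise to 25.2 sites after the start, against 14.4 where both levels were at least 0.5.

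The 10 pairs with the 5′ UTR farthest below its promoter, among those with at least 10 CpG sites in the 5′ UTR, were Ska1, Srrt, Bard1, Mmp11, Mcm3ap, Srp9, Impa2, Leng1, Inpp5f and Ddx28. Ska1, which acts at the kinetochore in mitosis, had 5′ UTR levels of 0.0244 in NC uninduced, 0.0141 in siDNMT1 uninduced, 0.0115 in NC OB and 0.0118 in siDNMT1 OB. Its promoter levels were 0.964, 0.892, 0.962 and 0.903. The ranges of the 5′ UTR and the promoter were far apart in all 4 libraries, which the choice by mean gap over these libraries had fixed. Bard1, the partner of BRCA1 in DNA repair, had 5′ UTR levels of 0.0169, 0, 0.0200 and 0, and promoter levels of 0.858, 0.838, 0.849 and 0.827. Its 5′ UTR is 339 bases with 26 CpG sites, all inside a CpG island, while 74 bases of its 2 kb promoter window were in an island. Ddx28, a mitochondrial RNA helicase, had 5′ UTR levels between 0.00958 and 0.0131 and promoter levels between 0.802 and 0.843. The promoter windows of Ddx28, Leng1, Mcm3ap and Mmp11 lay wholly inside a neighbouring gene, Dus2, Tmc4, Ybey and Chchd10 with Gm867 respectively. Such overlap was not more frequent in the class as a whole: at least 50% of the promoter window lay in another gene in 19.9% of the 1345 lower pairs and in 22.7% of all pairs.

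Srrt, a factor of nuclear RNA processing, had 5′ UTR levels between 0.0235 and 0.0492 under a promoter at 0.860 to 0.894. Srp9, a subunit of the signal recognition particle, stayed between 0.0127 and 0.0224 in the 5′ UTR. Its promoter read 0.776 in NC uninduced, 0.784 in siDNMT1 uninduced, 0.873 in NC OB and 0.919 in siDNMT1 OB, so the promoter was higher in both OB libraries while the 5′ UTR was not. For Inpp5f, an inositol phosphatase gene with an imprinted transcript, the median 5′ UTR CpG site lay 77175 bases from the outermost start. Its 5′ UTR stayed between 0.0121 and 0.0173 and its promoter between 0.818 and 0.829.

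The 10 pairs with the 5′ UTR farthest above its promoter were Pmpcb, Anp32e, Cdc34, Hilpda, Zfp580, Islr, Foxj1, Actl10, Asphd1 and Tkfc. Foxj1, a transcription factor of ciliogenesis with a single annotated start, had 5′ UTR levels of 0.875 in NC uninduced, 0.864 in siDNMT1 uninduced, 0.905 in NC OB and 0.869 in siDNMT1 OB. Its promoter levels were 0.0640, 0.0505, 0.0408 and 0.0410, and the island over its 5′ UTR had a mean level of 0.703. The methylated 5′ UTR of Foxj1 thus lay within a methylated island and next to a promoter entry near 0. Actl10, an actin-like gene, had 5′ UTR levels between 0.849 and 0.866 and promoter levels between 0.00855 and 0.0365, and its promoter window lay wholly inside other genes, among them Necab3. Zfp580, which encodes a zinc finger protein, had 5′ UTR levels of 0.953, 0.897, 0.909 and 0.819 over a promoter at 0.0116 to 0.0174.

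In several of these genes the 5′ UTR entry did not follow the island at the start. Pmpcb, a subunit of the mitochondrial processing peptidase, had 5′ UTR levels of 1, 0.978, 1 and 0.933, although the island that its annotated 5′ UTR touches had a mean level of 0.0189. The same held for Anp32e, a histone H2A.Z chaperone, with a 5′ UTR at 0.941 to 1 and an island at 0.0171. Cdc34, a ubiquitin-conjugating enzyme, had a 5′ UTR at 0.838 to 0.987 and an island at 0.0154. Hilpda, a lipid droplet protein, had a 5′ UTR at 0.950 to 0.985 and an island at 0.0593. The annotated starts of Pmpcb, Anp32e and Cdc34 span 19640, 14958 and 2808 bases, and a level can rest on part of the annotated sites. The levels of the 5′ UTR and the exon entry were equal in all 4 libraries in 1045 pairs, and those of the 5′ UTR and the promoter in 85, so entries of 1 gene can share their sites.

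**Figure D3:**
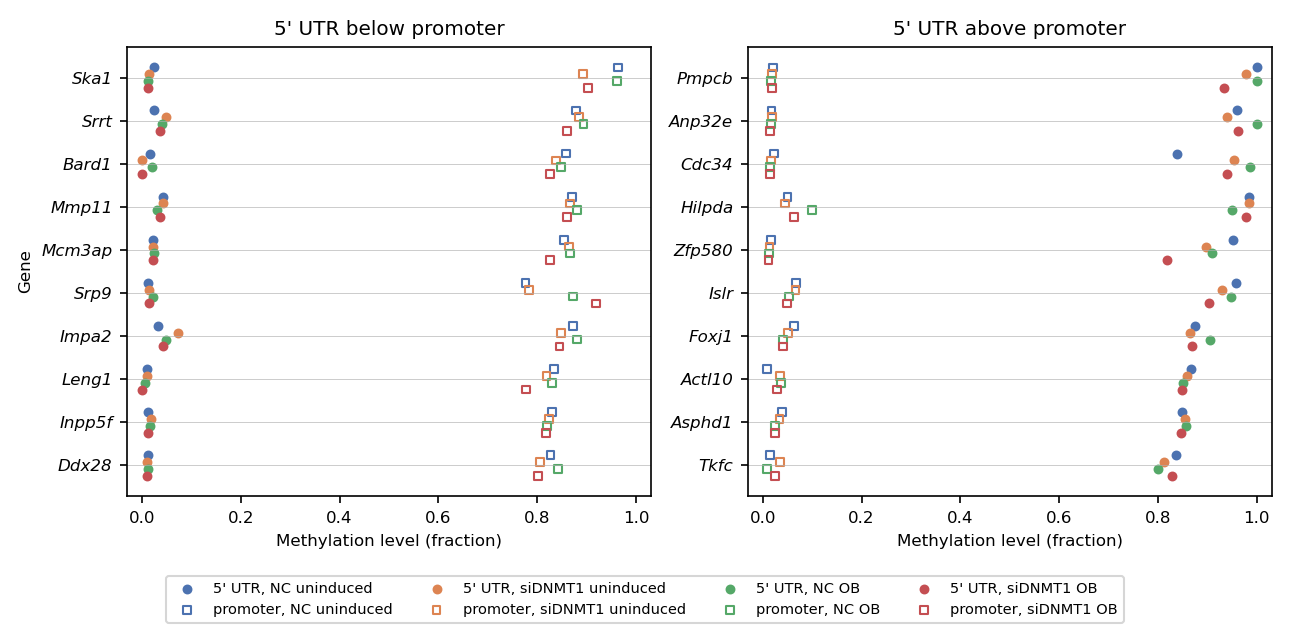
Methylation level (horizontal axis, fraction) of the 5′ UTR (filled circles) and promoter (open squares) in each of the 4 libraries for the 10 genes with the 5′ UTR farthest below (left) and the 10 with it farthest above (right) its promoter. Circles and squares do not overlap in any of the 20 genes, which were chosen for a wide mean gap over these same libraries.

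Gene lists chosen for this cell type were read in the same way. Over all pairs the median level was 0.0256 in the 5′ UTR and 0.0694 in the promoter. The 39 ribosomal protein genes with a pair, of 50 listed, had medians of 0.0163 and 0.0262. All 39 of their 5′ UTRs were below 0.1, as were 70.1% of the 5′ UTRs over all pairs. Rpl12 had 5′ UTR levels of 0.0177 to 0.0250 beside a promoter at 0.454 to 0.522, and Rps15 had 0.00854 to 0.0109 beside 0.231 to 0.299. Of these 39 genes, 2 had a promoter entry that was higher by at least 0.2, a gap found in 12.7% of all pairs.

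Germline genes, most of which are silent in somatic cells, stood at the other end. The 23 with a pair, of 48 listed, had medians of 0.768 in the 5′ UTR and 0.701 in the promoter. Of their 5′ UTRs, 19 were at 0.5 or above, beside 8.14% over all pairs. Sycp1, a synaptonemal complex protein, had 5′ UTR levels of 0.932, 0.922, 0.950 and 0.930 and promoter levels of 0.506, 0.503, 0.449 and 0.491. Asz1 and Syce2 had the opposite arrangement, with gaps of -0.305 and -0.292. The 5′ UTR was the lower side in 9 of the 23, and in 37.5% of all pairs with both levels at 0.5 or above. The 21 imprinted genes, of 36 listed, had medians of 0.478 and 0.450, and 8 of their 5′ UTRs were the lower side. Imprinted genes carry methylation on 1 parental allele, and Dlk1, a growth regulator of this group, had 5′ UTR levels of 0.472, 0.514, 0.382 and 0.388 and promoter levels of 0.321, 0.364, 0.266 and 0.248. The Dlk1 5′ UTR was above its promoter in each library, and both were lower in both OB libraries.

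The 15 osteoblast genes with a pair, of 30 listed, had a median 5′ UTR level of 0.0327 and a median promoter level of 0.279. In 5 of them the 5′ UTR was lower by at least 0.2, and in 2 it was higher, beside 12.7% and 4.22% of all pairs. Lrp5, a Wnt co-receptor, had 5′ UTR levels of 0.0324, 0.0339, 0.0486 and 0.0161 under promoter levels of 0.717, 0.697, 0.721 and 0.693. Msx1, a homeobox factor of skeletal development, had 0.0140, 0.0313, 0.0361 and 0.0171 under 0.472, 0.489, 0.406 and 0.387. Both 5′ UTRs were nearly unmethylated while the promoter entries were not. Sp7, the transcription factor osterix, had the reverse, with 5′ UTR levels of 0.552, 0.578, 0.594 and 0.549 over promoter levels of 0.151, 0.131, 0.171 and 0.137. Dlx3, another homeobox factor, also had the higher level in the 5′ UTR, at 0.36, 0.358, 0.279 and 0.271 against 0.122, 0.0580, 0.101 and 0.0979. None of the 15 osteoblast 5′ UTRs changed by 0.1 in the comparisons given below, where at most 2.72% of all 5′ UTR members did, so a count of 0 is near the background. Under induction in siDNMT1 cells 2 of their promoters fell, that of Msx1 and that of Bmp4, where 2.45% of the promoters of all pairs changed in either direction. Bmp4, a bone morphogenetic protein, had promoter levels of 0.650, 0.660, 0.607 and 0.534 beside 5′ UTR levels of 0.723, 0.724, 0.784 and 0.755.

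Most genes of the DNA methylation machinery, like most of all pairs, had a nearly unmethylated 5′ UTR. Of 9 with a pair, 7 had a 5′ UTR below 0.1, beside 70.1% of all pairs. In 4 the 5′ UTR was lower than the promoter by at least 0.2, beside 12.7% of all pairs. Dnmt1, the gene the siRNA targets, had 5′ UTR levels of 0.0224 in NC uninduced, 0.0167 in siDNMT1 uninduced, 0.0174 in NC OB and 0.0199 in siDNMT1 OB. Its promoter levels were 0.244, 0.226, 0.197 and 0.187. An siRNA acts on the transcript, so these levels do not check the knockdown. Uhrf2, a relative of the DNMT1 recruiter UHRF1, had a 5′ UTR at 0.0131 to 0.0147 and a promoter at 0.361 to 0.384. Tet3, a dioxygenase that oxidises methylated cytosine, had the opposite arrangement, with a 5′ UTR at 0.437, 0.440, 0.417 and 0.350 and a promoter at 0.0344 to 0.0422. The median CpG site of the Tet3 5′ UTR lay 4023 bases from the outermost start.

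The 22 Hox genes with a pair, of 39 listed, had medians of 0.268 in the 5′ UTR and 0.285 in the promoter, well above those of all pairs on both sides. They were split, with 4 lower and 5 higher by at least 0.2, beside 12.7% and 4.22% of all pairs. Hoxa10 had 5′ UTR levels of 0.113 to 0.144 under a promoter at 0.549 to 0.646. The 10 genes that the study names for methylation or OB differentiation and that have a pair, of 14 listed, were chosen by the study on these samples and had medians of 0.0408 and 0.114. Sox6, a chondrogenic transcription factor, had the widest gap among them, with a 5′ UTR at 0.759, 0.716, 0.772 and 0.734 over a promoter at 0.272, 0.248, 0.232 and 0.235. Its median 5′ UTR CpG site lay 94848 bases from the outermost start, so its 5′ UTR and promoter entries need not adjoin. None of these 10 changed by 0.1 in the 5′ UTR in any comparison, a count that the background share of at most 2.72% also gives.

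The cell type was checked by methylation only, since no expression was read here. Of 7 mesenchymal markers with a pair, of 15 listed, 5 had a 5′ UTR below 0.1, beside 70.1% of all pairs. The median 5′ UTR level of the 7 was 0.0187, while their promoters had a median of 0.151. Cspg4, the NG2 proteoglycan, had a 5′ UTR at 0.00391 to 0.0106 under a promoter at 0.718 to 0.748, and Twist2, a mesenchymal transcription factor, 0.0136 to 0.0270 under 0.487 to 0.545. Eng and Nt5e went the other way, with 5′ UTRs at 0.381 to 0.569 and 0.123 to 0.177. Of 15 markers of other cell types, of 30 listed, 2 had a 5′ UTR below 0.1 and the median was 0.428, with the same median of 0.428 in the promoter. The epithelial keratin Krt18 had a 5′ UTR at 0.701 to 0.787 and a promoter at 0.315 to 0.405. By median 5′ UTR level the mesenchymal and the other markers were farther apart than by median promoter level, and a methylation level does not give expression.

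The siRNA comparison asked which 5′ UTRs differed once DNMT1 was depleted, and whether their promoters moved with them. A level that differed by at least 0.1 was counted as changed. In uninduced cells, 57 5′ UTRs of the 10612 pairs were lower and 73 higher in the siDNMT1 library. Over all 5′ UTR members 0.644% were lower and 0.757% higher, 1.4% in either direction, beside 1.48% of all promoters and 2.91% of all regions of the 8 classes. In OB cells, 110 were lower and 53 higher, and over all members 1.18% and 0.6%, or 1.78% in either direction, beside 2.19% of promoters and 3.94% of all regions. Within the pairs, 1.23% of the 5′ UTRs changed before induction and 1.54% after it, beside 0.999% and 1.23% of their own promoters. The median difference over the pairs was 0.000677 uninduced and -0.000644 in OB, so a typical 5′ UTR did not move. The central 90% of the 5′ UTR differences ran from -0.0339 to 0.0335 uninduced and from -0.0436 to 0.0287 in OB.

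Most changed 5′ UTRs had a promoter that stayed within the threshold, where 0.999% (uninduced) and 1.23% (OB) of the promoters of all pairs crossed it in either direction. Of the 130 5′ UTRs that changed in uninduced cells, 16 had a promoter that crossed 0.1 the same way, 3 one that crossed it the other way and 111 one that stayed within it. Of the 163 in OB cells, these numbers were 13, 1 and 149. The sign of the difference was shared more often, in 92 of the 130 and in 119 of the 163. Conversely, 87 promoters in uninduced and 117 in OB cells changed while their 5′ UTR did not. The changed 5′ UTRs had fewer CpG sites, with medians of 13 and 12 against 25 over all pairs, and higher mean levels, with medians of 0.336 and 0.397. How far the number of sites or reads entered these changes was not tested.

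**Figure D4:**
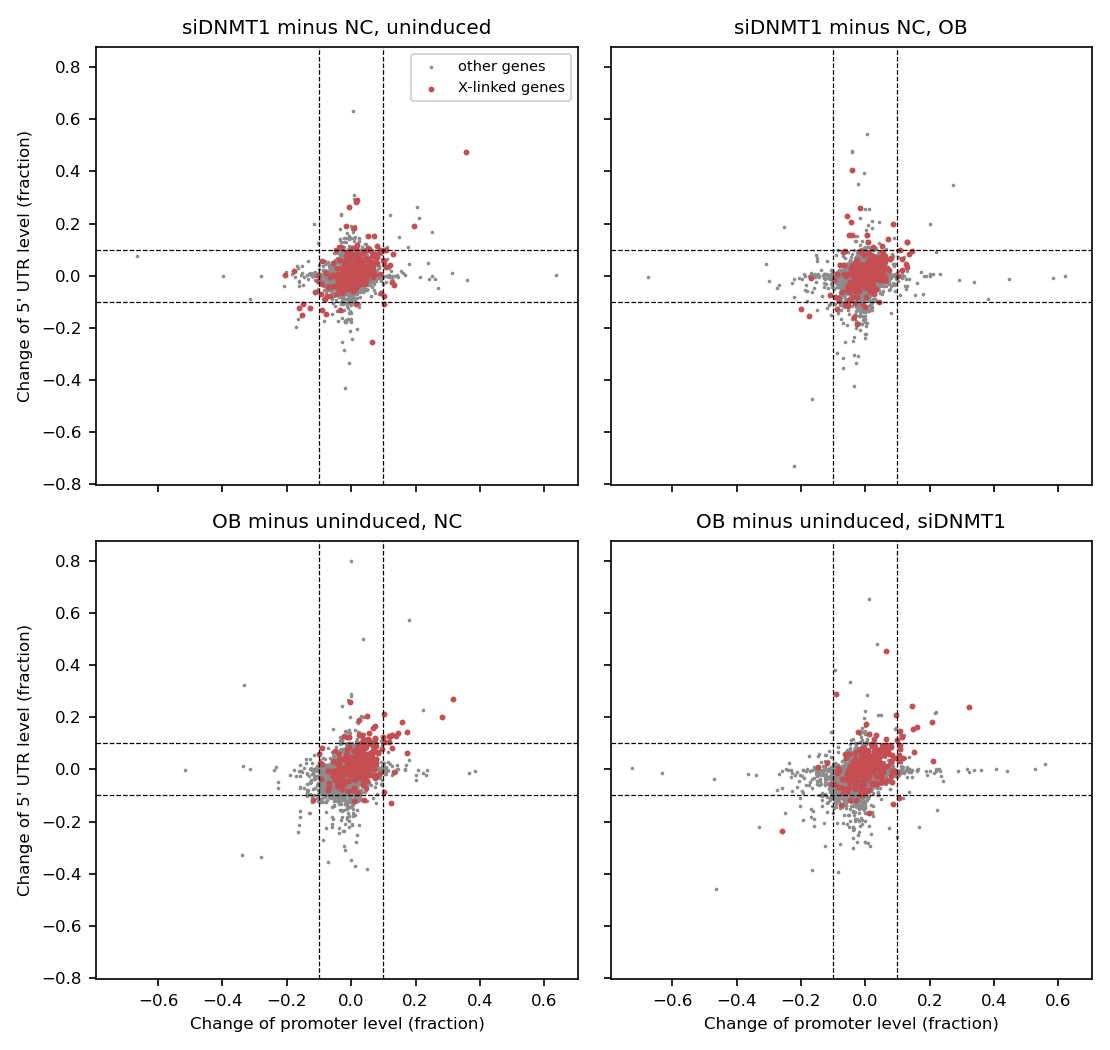
Change of the 5′ UTR level (vertical axis) against change of the promoter level of the same gene (horizontal axis), both as differences of fractions, in the 4 comparisons for 10612 genes, with X-linked genes in red. Dashed lines mark 0.1 in each direction. Most changed genes lie beyond the threshold on 1 axis only, and in the NC induction panel 32 X-linked 5′ UTRs lie above 0.1 and 4 below -0.1.

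Pairs were also read by level class, cut on the mean over all 4 libraries, which includes the libraries compared. In OB cells, the 531 pairs with both levels at 0.5 or above had median differences of -0.0160 in the 5′ UTR and -0.0168 in the promoter, and 73.1% of the 5′ UTRs were lower. In the 335 pairs with a 5′ UTR below 0.1 and a promoter at 0.5 or above, the median difference was -0.000100 in the 5′ UTR and -0.0235 in the promoter, with 79.7% of the promoters lower. These 5′ UTRs were chosen near 0 and could not fall as far as the promoters. In the 49 pairs of the opposite arrangement, the medians were -0.0176 in the 5′ UTR and -0.000969 in the promoter. In uninduced cells the medians were -0.00663 in the 5′ UTRs of pairs high on both sides and -0.00511 in the methylated promoters over a low 5′ UTR.

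The siRNA comparisons in uninduced and OB cells use different libraries and shared few 5′ UTRs. In both, 9 5′ UTRs fell and 14 rose by at least 0.1, and 22 changed in opposite directions. The promoters of all pairs also shared few changes, with counts of 12, 8 and 11 in that order. Among the 9 were 2 unmatched identifiers with identical levels, which may be 1 measurement. Of the 14 5′ UTRs that rose, 10 had a promoter that moved by less than 0.05 in both. The central range of promoter differences over all pairs, cut as for the 5′ UTRs above, lay within 0.05 in each siRNA comparison. It ran from -0.0347 to 0.0287 uninduced and from -0.0481 to 0.0247 in OB, so such a promoter was not particular to these genes. Also, 5 of the 14 were X-linked, namely Gata1, Gpm6b, Nkrf, Rap2c and Ssr4, a count made after the values were seen. Gpm6b, a neuronal membrane glycoprotein, was the only gene with at least 10 CpG sites that changed by at least 0.2 the same way in both. Its 5′ UTR levels were 0.0800 in NC uninduced, 0.370 in siDNMT1 uninduced, 0.284 in NC OB and 0.512 in siDNMT1 OB, and its promoter levels were 0.446, 0.463, 0.496 and 0.439. A rise from each NC library to its siDNMT1 library was fixed by the choice of this gene. Both siDNMT1 libraries were also above both NC libraries in the 5′ UTR, and the promoter showed no such order. Ssr4, a subunit of the translocon-associated complex, had 5′ UTR levels of 0.124, 0.234, 0.284 and 0.689.

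Of the 9 that fell in both siRNA comparisons, 3 had at least 10 CpG sites, namely Ino80d, Psmb1 and Smpx. Ino80d, a subunit of the INO80 chromatin remodeller, had 5′ UTR levels of 0.451 in NC uninduced, 0.286 in siDNMT1 uninduced, 0.171 in NC OB and 0.0381 in siDNMT1 OB. Its promoter stayed between 0.0107 and 0.0293. Psmb1, a proteasome subunit, had 0.219, 0.0487, 0.312 and 0.196 in the 5′ UTR and 0.0214 to 0.0250 in the promoter. In both genes a siDNMT1 library below its NC library each time was fixed by the choice, and the promoter was near 0. The annotated starts of Ino80d and Psmb1 span 51106 and 21162 bases, so their 5′ UTR and promoter entries need not adjoin. Hoxa6 and Hoxc13 moved in opposite senses, at 0.302, 0.130, 0.446 and 0.150 for Hoxa6 and 0.294, 0.605, 0.325 and 0.5 for Hoxc13, but their annotated 5′ UTRs hold 4 and 2 CpG sites.

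Among 5′ UTRs with at least 10 CpG sites and a promoter that moved by less than 0.05, there were 25 falls and 31 rises under siDNMT1 before induction, with 42 falls and 26 rises after it. The minimum of 10 counts annotated CpG sites, and how many of them were read is unknown. The largest changes, among them those from or to a level of exactly 0 or 1, may thus rest on few reads. In uninduced cells the largest fall was in H2-Ke6, from 0.286 to 0, and Sema5b, a semaphorin, went from 0.472 to 0.229. The largest rise was in Psme3, the proteasome activator PA28γ, from 0 to 0.294, while its promoter read 0.0422 and 0.0506. Neither Sema5b nor Psme3 repeated the change in OB cells, where they read 0.179 and 0.234, and 0.143 and 0.150. In OB cells the largest fall was in Pygl, the liver glycogen phosphorylase, from 0.377 to 0.0714. Cartpt, a neuropeptide gene, had 0.292, 0.361, 0.303 and 0.0673 in the 4 libraries, so only the siDNMT1 OB library was low. The largest rise in OB cells was in Fgr, a Src-family kinase, from 0.526 to 1, with 0.514 and 0.618 in the uninduced libraries.

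More 5′ UTRs differed between OB and uninduced libraries than between siDNMT1 and NC libraries, and most of them were lower in OB. This order did not hold throughout for all promoters, at 2.17% (induction, NC) against 2.19% (siDNMT1, OB). Nor did it hold throughout for all regions, at 3.55% against 3.94%. In NC cells, 147 5′ UTRs were lower and 80 higher in the OB library, and over all members 1.55% and 0.801%, or 2.35% in either direction, beside 2.17% of promoters and 3.55% of all regions. In siDNMT1 cells, 217 were lower and 55 higher, and over all members 2.12% and 0.592%, or 2.72% in either direction, beside 3.36% of promoters and 5.03% of all regions. The median difference was -0.00258 in NC and -0.00387 in siDNMT1 cells, and 63.6% and 70.2% of the 5′ UTRs were lower after induction. The siRNA and induction comparisons share libraries, so their counts are not independent. The OB cells had 3 more days after the 48 h of transfection, so OB medium and time in culture cannot be told apart. Of the 227 that changed in NC cells, 33 had a promoter that changed the same way by at least 0.1, and of the 272 in siDNMT1 cells, 40 did. The sign was shared in 163 of the 227 and in 221 of the 272, and within the pairs 1.36% and 2.45% of all promoters changed in either direction.

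Falls under induction were read by level class in the same way. The 1507 5′ UTRs with a mean level from 0.2 to below 0.5 had a median difference of -0.0249 in NC and -0.0338 in siDNMT1 cells, and 9.22% and 10.5% of them changed. The 864 at 0.5 or above had -0.0138 and -0.0214, with 5.09% and 7.06% changed, and the 7441 below 0.1 had -0.00144 and -0.00238, with 0.242% changed in each. The promoters of the 1507 pairs with a 5′ UTR from 0.2 to below 0.5 had medians of -0.0155 and -0.0237. With the class chosen on the promoter instead (2317 pairs at 0.2 to below 0.5), the promoters had -0.0185 and -0.0270 and their 5′ UTRs -0.00863 and -0.0142, so the side with the larger fall was the side used to choose the class. The number of CpG sites went with the share changed: in siDNMT1 cells, 6.02% of the 681 5′ UTRs with at most 4 sites changed and 1.20% of the 1914 with 50 or more. What part the unknown depth has in these shares was not tested.

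In both induction comparisons, 45 5′ UTRs fell and 9 rose by at least 0.1, and 25 changed in opposite directions. For the promoters of all pairs these counts were 36, 15 and 8. Of the 45 5′ UTRs that fell, 29 had at least 10 CpG sites. A promoter that moved by less than 0.05 in both stood beside 25 of the 45, and one that fell by at least 0.1 in both beside 4. Over all pairs, the central range of promoter differences, cut as before, ran from -0.0550 to 0.0266 in NC and from -0.0673 to 0.0245 in siDNMT1 cells. The medians were -0.00377 and -0.00593, so a promoter under 0.05 was not particular to these genes. With at least 10 CpG sites and a fall of at least 0.2 in both, there were Ston1, Arhgef19, Ino80d, Dtx3 and Ptpn6. This choice fixed a lower 5′ UTR level in each OB library than in the uninduced library of the same siRNA. Ston1, the endocytic protein stonin 1, had 5′ UTR levels of 0.821 in NC uninduced, 0.804 in siDNMT1 uninduced, 0.493 in NC OB and 0.344 in siDNMT1 OB. Its promoter went with it, at 0.584, 0.599, 0.243 and 0.136, although the median CpG site of the Ston1 5′ UTR lay 29042 bases from the outermost start. Arhgef19 had 0.399, 0.335, 0.0447 and 0.0406 in the 5′ UTR, and the uninduced and OB libraries did not overlap. Its promoter moved less, at 0.244, 0.270, 0.172 and 0.146.

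Dtx3 and Ptpn6 fell in the 5′ UTR alone. Dtx3, an E3 ubiquitin ligase of the Deltex family, had 5′ UTR levels of 0.739, 0.667, 0.525 and 0.389 over a promoter at 0.0292 to 0.0347. Ptpn6, the phosphatase SHP-1, had 0.547, 0.503, 0.333 and 0.222 beside a promoter at 0.605 to 0.645. In both genes each OB library was below each uninduced library, which the choice had fixed within each siRNA. The siDNMT1 library was below its NC library at each stage. Among the other 5′ UTRs that fell in both, chosen after their values were seen, Hand2, a bHLH factor of limb and heart development, had 0.408, 0.447, 0.3 and 0.330 with 92 CpG sites. Tbx1, a T-box factor, had 0.348, 0.392, 0.221 and 0.228. Acvrl1, the TGFβ family receptor ALK1, had 0.705, 0.632, 0.539 and 0.484, and Wnt2, a Wnt ligand, had 0.640, 0.623, 0.484 and 0.507. Their order between uninduced and OB libraries was fixed by the choice.

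**Figure D5:**
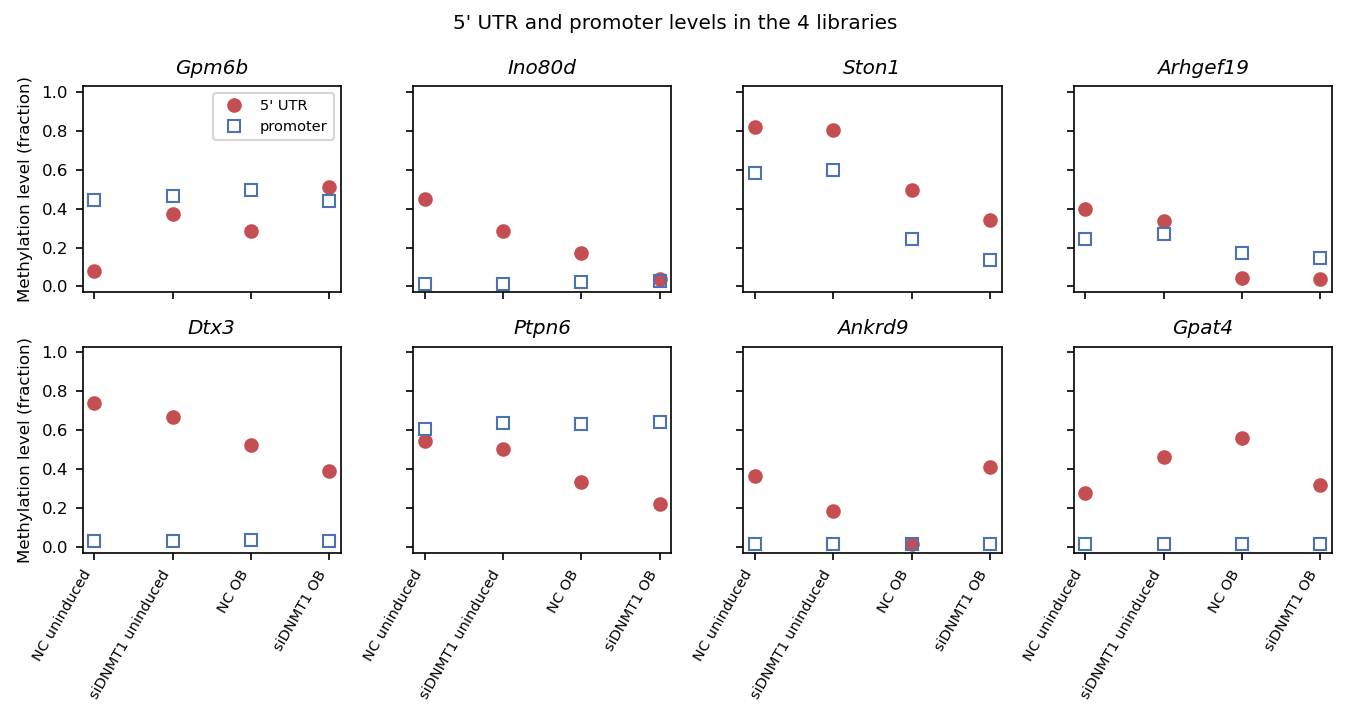
Methylation level (vertical axis, fraction) of the 5′ UTR (filled circles) and promoter (open squares) in the 4 libraries for 8 genes, 1 library per point and therefore without error bars. The 5′ UTR of Ston1, Arhgef19, Dtx3 and Ptpn6 is lower in both OB libraries, and these genes were chosen for such a fall. In Ankrd9 and Gpat4 the 4 levels follow no common order of siRNA or induction.

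X-linked genes differed from the autosomal ones in level and in direction. The 286 X-linked pairs had median levels of 0.370 in the 5′ UTR and 0.364 in the promoter, against 0.0247 and 0.0636 in autosomal pairs, and their 5′ UTR was the lower side in 43.7% against 65.7%. After induction in NC cells, 32 X-linked 5′ UTRs rose and 4 fell, so 32 of the 80 rises were X-linked, and the median X-linked difference was 0.0177. The X-linked promoters also had a positive median, 0.0228. In siDNMT1 cells, 17 X-linked 5′ UTRs rose and 7 fell after induction, with a median of 0.0141. Under siDNMT1, 17 rose and 10 fell uninduced, and 14 rose and 12 fell in OB. In either direction, 9.44% (siDNMT1, uninduced), 9.09% (siDNMT1, OB), 12.6% (induction, NC) and 8.39% (induction, siDNMT1) of the X-linked 5′ UTRs changed. The autosomal shares were 0.979%, 1.31%, 1.85% and 2.40% in that order. More X-linked changes were thus not limited to induction. Of the 9 5′ UTRs that rose in both induction comparisons, 5 were X-linked, namely Cul4b, Gpm6b, Mospd2, Ssr4 and Upf3b. Cul4b, a scaffold of ubiquitin ligases, had 5′ UTR levels of 0.364, 0.320, 0.494 and 0.457, both OB libraries above both uninduced ones. A rise within each siRNA was fixed by the choice of genes that rose in both comparisons.

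Some lists contained changed members under induction. Over all 5′ UTR members, 1.55% fell and 0.801% rose in NC cells, and 2.12% fell and 0.592% rose in siDNMT1 cells. Of the 23 germline genes, 2 5′ UTRs rose in NC cells, Sycp3 and Piwil2. Sycp3 had the same levels in the 5′ UTR and the promoter, 0.509, 0.508, 0.629 and 0.727, and counts as 1 measurement. Piwil2, a partner of piRNAs, had 0.503, 0.518, 0.655 and 0.505, so only the NC OB library was high. Of the 22 Hox 5′ UTRs, Hoxa6 rose in NC cells, while Hoxc13 and Hoxb7 fell in siDNMT1 cells, and their annotated 5′ UTRs hold 4, 2 and 5 CpG sites. Of the 21 imprinted genes, Dlk1 fell by 0.126 and Mkrn3 rose by 0.131 in siDNMT1 cells, with promoter differences of -0.116 and 0.119. Among the 7 mesenchymal markers 1 5′ UTR fell, in siDNMT1 cells: Eng, the TGFβ co-receptor endoglin, had 0.509, 0.569, 0.416 and 0.381, and its promoter had 0.444, 0.493, 0.368 and 0.333. None of the 39 ribosomal protein 5′ UTRs and none of the 9 of the DNA methylation machinery changed by 0.1 in any of the 4 comparisons, in which between 1.4% and 2.72% of all 5′ UTR members did.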

How the data were processed

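Per the labels and the study's methods, the authors trimmed bisulfite reads (Trimmomatic 0.36), used Bismark 0.16.3 for alignment to mm10 and deposited, per library, the fraction of methylated CpG cytosines in each region, with promoters as the 2 kb upstream of the start. The coverage minimum and the weighting of cytosines are not given in the sources used here, and depth is unknown. From these fractions, gaps (5′ UTR minus promoter) and differences between libraries were taken where every library had a level, and no test was run between conditions, each of which has 1 library. Of the 11491 members, 11484 matched GENCODE vM21 (GRCm38). Its merged 5′ UTRs gave CpG sites, with positions counted from 1. Named were the widest gaps (10 per direction), changes of 0.2 in both comparisons of a kind, the largest changes with a promoter under 0.05, and per list the largest changes and gaps. Members, lists and thresholds were chosen with earlier results of these data known. Python 3.11.15, pandas 2.3.3, numpy 2.4.6, pysam 0.24.0 and matplotlib 3.10.9 were used, and the functions were tested on simulated data. Alternatives covered the threshold, the set of genes, levels of 0 or 1 and centring of libraries.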

Additional observations from a re-analysis of the deposited data

Results flagged for a closer look

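Some named 5′ UTRs moved in opposite directions in both comparisons of a kind, each by at least 0.1, with 1 library per condition. These differences were not tested. Under siDNMT1, in uninduced and then in OB cells, Ankrd9 differed by -0.179 and 0.392, Gpat4, a glycerol-3-phosphate acyltransferase, by 0.190 and -0.240, and Hps1, a gene of lysosome-related organelles, by 0.137 and -0.249. The folate transporter gene Slc19a1 differed by -0.105 and 0.208, the potassium channel subunit gene Kcng3 by 0.142 and -0.154, the lipid transporter gene Abca2 by -0.143 and 0.133, and Prdm6 by -0.123 and 0.105.

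Under induction, in NC and then in siDNMT1 cells, Ankrd9 differed by -0.347 and 0.224, Psme3 by 0.143 and -0.144, the calcium channel gene Cacna1d by 0.107 and -0.154, Gpat4 by 0.283 and -0.148, and the kinase gene Camkk2 by 0.124 and -0.114. Pygl differed by 0.137 and -0.179, Hps1 by 0.245 and -0.141, the sialyltransferase gene St3gal2 by -0.121 and 0.197, the aquaporin gene Aqp7 by -0.131 and 0.143, and Slc19a1 by -0.154 and 0.16. The siRNA and induction values of a gene use the same 4 libraries. The NC OB library alone held the lowest Ankrd9 level, 0.0184, and the highest Gpat4 level, 0.558, over promoters that stayed between 0.0146 and 0.0180.

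The median 5′ UTR difference between siDNMT1 and NC also changed sign, at 0.000677 in uninduced and -0.000644 in OB cells. Both are far below the 0.1 at which a change was counted.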

How the results depend on the processing

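No paired analysis was possible because the groups share fewer than 2 replicate numbers. The siRNA comparisons before and after induction were read side by side, without a test. Without a replicate, no count above separates the condition from the library, and the unknown depth limits levels of 5′ UTRs with few CpG sites most. Centring each library on its median and leaving out levels of exactly 0 or 1 (10140 pairs left) each left the 15 counts and shares similar. No count moved by over 1.5 times, and no share went beyond its counting interval. Without levels of exactly 0 or 1, 1258 5′ UTRs were lower by gap, against 1345. With a change counted from 0.05 (gap from 0.1), 2304 5′ UTRs were lower and 851 higher than their promoter. Under siDNMT1, 283 then fell and 275 rose uninduced, and 415 and 243 in OB. Under induction, 740 and 275 did in NC, and 959 and 222 in siDNMT1 cells. The promoter changed the same way for 18.2% (siDNMT1, OB), 25.3% (induction, NC) and 34.1% (induction, siDNMT1) of them. With a change from 0.2 (gap from 0.3), these were 875 and 246 by gap, 8 and 12, 17 and 16, 25 and 19, and 33 and 15.

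Fewer pairs gave fewer calls by construction. With at least 10 CpG sites (8794 pairs), 34 fell and 47 rose under siDNMT1 uninduced, 62 and 35 in OB, and under induction 49 rose in NC and 35 in siDNMT1 cells. On autosomes (10320 pairs), 48 rose under induction in NC cells, against 80 over all pairs. With starts within 100 bases (1771 pairs), 187 were lower and 130 higher by gap, with the 5′ UTR lower in 59.5%. Then 13 fell and 25 rose under siDNMT1 uninduced, 20 and 13 in OB, 23 and 20 under induction in NC, and 46 and 14 in siDNMT1 cells, where 20% of promoters changed the same way.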

Other observations

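The 5′ UTRs read in these libraries were not a sample of all 5′ UTRs. Of 20971 protein-coding genes with an annotated 5′ UTR, 11474 were members. Member 5′ UTRs held a median of 24 CpG sites and 3 CCGG sites, and the others 3 and 0, so genes with CpG-poor 5′ UTRs are mostly absent from the values above.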
